A study of Mus musculus with 9 samples.

Results

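The untreated mouse bone marrow-derived mast cells of this series were described by the absolute level of each gene in the resting state. The members were the 3 untreated libraries of the 9 in the series, taken by their label, with all 23951 gene symbols of the deposited table. Levels are FPKM, counts of sequenced fragments divided by transcript length in kilobases and by library size, so that levels of different genes can be compared within a library. The cells came from wild type C57BL/6 marrow and were grown for 4 to 6 weeks in IL-3 and stem cell factor (SCF), at 10 ng/ml each. They received neither IgE nor antigen. The labels give a purity of more than 95% cells that carry the IgE receptor (FcER1) and KIT (CD117). They are silent on whether each replicate had its own culture or mouse. The spread given as ± (SD, n = 3 throughout) may therefore be technical.

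Mast cells are immune cells of connective tissue and mucosa that develop from marrow progenitors under IL-3 and SCF. They hold secretory granules filled with proteases, histamine and serotonin, bound to the sulphated chains of the proteoglycan serglycin. The high-affinity IgE receptor, made of an alpha chain that binds IgE, a beta chain and a gamma chain that signal, arms the cell before antigen is met. Cross-linking of that receptor releases the granules, starts the synthesis of leukotrienes and prostaglandins, and turns on cytokine genes.

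The named cell type was checked against its markers. Fcer1a, the IgE-binding alpha chain, was at 5328, 5808 and 5821 FPKM in replicates 1, 2 and 3. Kit, the SCF receptor, was at 472, 419.9 and 450.4 FPKM. Tpsb2, a granule tryptase, was at 6729, 6389 and 6922 FPKM. These markers, Ms4a2 and Gzmb were all at 100 FPKM or more in every library. Of the further mast cell markers, Fcer1g, Srgn and Gata2 were also at 100 FPKM or more. Mitf was lower at a mean of 73.0 FPKM and Hdc at 27.1. Cpa3 was listed at 0 in all libraries, a value treated further on. In bulk RNA, a gene used by few cells and a gene used weakly by all cells cannot be told apart.

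Stretches upstream of the start sites are shown for the marker genes except Tpsb2, and for 2 further highly expressed mast cell genes. They let the level of each gene be read beside its promoter sequence. Tpsb2 had no window among the promoter sequences used. Sequences are the 250 bases before the RefSeq start on the gene's strand, in the GRCm38.p6 build, and the first window listed is shown where RefSeq has several. Fcer1a lies at chr1:173227230-173227479 (minus strand), Ms4a2 at chr19:11623720-11623969 (minus) and Kit at chr5:75574737-75574986 (plus). Gzmb lies at chr14:56262335-56262584 (minus), Srgn at chr10:62527446-62527695 (minus) and Il1rl1 at chr1:40429320-40429569 (plus). Capitals mark AGATAA or TGATAA (forms of the motif of GATA factors), TATAAA (the sequence of the TATA box) and CCAAT, on either strand. They are marked wherever they occur in the stretch, so a marked TATAAA need not be a working TATA box.
Fcer1a: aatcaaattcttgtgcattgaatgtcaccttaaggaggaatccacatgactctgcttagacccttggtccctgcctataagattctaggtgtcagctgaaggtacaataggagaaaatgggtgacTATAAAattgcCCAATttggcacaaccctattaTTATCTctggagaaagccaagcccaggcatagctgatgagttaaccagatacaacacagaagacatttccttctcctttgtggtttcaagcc
Ms4a2: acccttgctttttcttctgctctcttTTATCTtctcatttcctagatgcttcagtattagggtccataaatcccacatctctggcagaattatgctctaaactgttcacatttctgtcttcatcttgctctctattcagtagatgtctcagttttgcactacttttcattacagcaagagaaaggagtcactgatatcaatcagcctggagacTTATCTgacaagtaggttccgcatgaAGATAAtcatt
Srgn: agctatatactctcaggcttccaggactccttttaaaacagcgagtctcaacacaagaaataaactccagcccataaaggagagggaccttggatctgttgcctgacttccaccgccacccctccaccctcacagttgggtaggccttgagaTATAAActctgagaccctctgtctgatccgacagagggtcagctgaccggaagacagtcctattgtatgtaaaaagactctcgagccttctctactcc
Il1rl1: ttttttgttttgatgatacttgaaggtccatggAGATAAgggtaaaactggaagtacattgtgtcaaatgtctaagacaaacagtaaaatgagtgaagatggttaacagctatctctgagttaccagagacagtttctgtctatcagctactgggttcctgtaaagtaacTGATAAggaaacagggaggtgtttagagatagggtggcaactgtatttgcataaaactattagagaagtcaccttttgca
Gzmb: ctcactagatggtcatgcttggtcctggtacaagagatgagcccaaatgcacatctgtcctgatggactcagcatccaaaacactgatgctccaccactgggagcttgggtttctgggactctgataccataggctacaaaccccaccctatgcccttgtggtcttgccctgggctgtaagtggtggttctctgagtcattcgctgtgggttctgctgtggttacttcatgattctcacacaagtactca
Kit: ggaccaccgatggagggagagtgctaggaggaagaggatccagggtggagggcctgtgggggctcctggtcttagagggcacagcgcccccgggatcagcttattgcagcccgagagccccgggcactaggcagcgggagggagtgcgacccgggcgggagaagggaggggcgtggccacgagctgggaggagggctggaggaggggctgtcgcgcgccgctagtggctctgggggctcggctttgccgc
The Ms4a2 stretch held 3 AGATAA matches. Those of Fcer1a and Il1rl1 held AGATAA as well, Fcer1a also TATAAA and CCAAT, and Il1rl1 also TGATAA. The Srgn stretch held TATAAA. The Kit and Gzmb stretches held none of these motifs. The Fcer1a stretch had a GC content of 42.4% and 0 CpG dinucleotides, against 70.8% and 17 for Kit. A set of mast cell receptor and granule genes at 10 FPKM or more had 25 members, of which 23 had a RefSeq window of 300 bases. AGATAA or TGATAA (counted together, either strand) was in 6 of these 23 (26.1%) and in 15.9% of all 17777 windows. Among the windows of symbols listed at 0 it was in 26.3%, a share as high as that of the set. Median GC content was 51% in the set, 47.3% in symbols listed at 0 and 56.3% in all windows. These shares are therefore given without a conclusion. TATAAA was in 4 of 23 (17.4%) and in 12.97% of all windows, and CCAAT in 7 of 23 (30.4%) and in 39.1%. A comparison of promoters between level classes is void, because only 74.2% of the symbols had a window.

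A symbol is called detected below when it was at 1 FPKM or more in all 3 libraries. This held for 10475 symbols, 43.7% of the table, and each library alone had 10625 to 10645. Counts of detected members in the lists and families below are to be read beside this 43.7%. By mean level, 675 symbols (2.82%) were at 100 FPKM or more, 5440 (22.7%) at 10 to 100 and 4546 (19%) at 1 to 10. A further 2293 (9.57%) lay at 0.1 to 1, 3059 (12.8%) above 0 and under 0.1, and 7938 (33.1%) were listed at 0 in all libraries. The median over all symbols was 0.274 FPKM, and that of the detected symbols 12.7 FPKM. Depth is not in the table and was estimated from the steps of low values at 29.9 to 33.7 M reads. At that depth 3 reads on a 2 kb transcript correspond to 0.0445 to 0.0502 FPKM, so levels under this are near the counting limit. Symbols just above 1 FPKM were Tshz3 and 4930562F07Rik (1.0004 and 1.0009), and just below it Klhl8 (0.997) and Clec5a (0.996).

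The top of the ranking was shared by mast cell products and general cell machinery. Short noncoding RNAs are left out of this ranking and treated further on. Of the 25 highest symbols, 9 encoded cytosolic ribosomal proteins. Tpsb2 was the highest, at 6679.8 ± 269.7 FPKM, and its range lay above that of Fcer1a (5652 ± 281). The ranges of Fcer1a, the elongation factor Eef1a1 (5562 ± 198), the interferon-induced membrane protein gene Ifitm1 (5318 ± 381) and the serglycin core protein gene Srgn (5244 ± 231) overlapped between neighbours. The ferritin chains Ftl1 (4342 ± 374) and Fth1 (2396 ± 30.4), which store iron, and actin (Actb, 3353 ± 65.4) followed, each apart from the next.

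Further down the top 25 came Ctsd, the lysosomal protease cathepsin D, at 2061 ± 86.6 FPKM, and the ribosomal protein genes Rps12 (2028), Rps26 (1978), Rps27rt (1828) and Rplp1 (1744). The histone gene Hist1h4d was at 1796 ± 229.9 FPKM, with replicate 1 the lowest. B2m, the light chain of MHC class I, was at 1661 ± 45.7, the actin-sequestering peptide gene Tmsb4x at 1573 ± 130.3, and the membrane protein genes Fxyd5 and Itm2b at 1618 ± 91.97 and 1557 ± 30.6. Il1rl1, the receptor for IL-33, ranked 23 at 1363 ± 6.28 FPKM and was, of the listed receptors, the highest after the IgE receptor alpha chain. Cyp11a1, the enzyme that starts steroid hormone synthesis from cholesterol, ranked 25 at 1249, 1325 and 1301 FPKM in the 3 libraries. Rps9, Rps24, Rpl17, Rpl23a and Rpl32 completed the 25, at 1321 to 1598 FPKM. Of the 24 neighbouring pairs in this order, 8 had ranges that did not overlap.

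**Figure D1:**
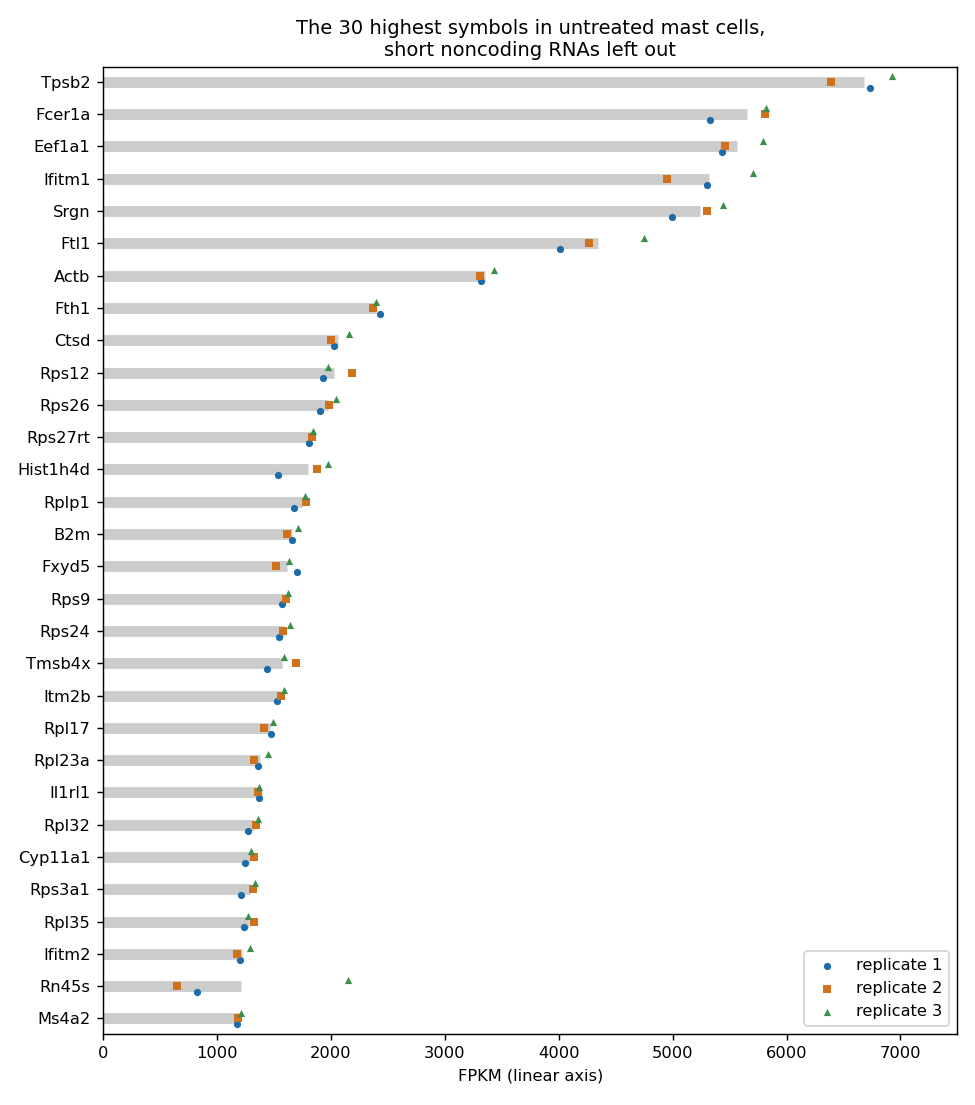
FPKM (linear axis) of the 30 highest symbols without short noncoding RNAs; bars are means and points the 3 untreated libraries. Tpsb2 stands highest, Fcer1a, Eef1a1, Ifitm1 and Srgn overlap, and Rn45s in replicate 3 lies far above the other libraries.

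Cytosolic ribosomal proteins took the largest share of the FPKM total among the protein classes, 12.4% ± 0.0989. The granule class (proteases, proteoglycan and amine genes, 56 symbols) took 3.16% ± 0.121, most of it Tpsb2 and Srgn. The 3 IgE receptor chains alone took 1.53% ± 0.00941, beside 1.91% ± 0.0337 for 105 oxidative phosphorylation genes. Histones took 2.96% ± 0.272, the actin cytoskeleton 2.51% ± 0.0849 and translation factors 2.37% ± 0.07. All other listed surface receptors and adhesion molecules together, 195 symbols, took 2.13% ± 0.0891, iron storage and redox genes 1.84% ± 0.0552 and chaperones 1.42% ± 0.0374. The listed transcription factors (91 symbols) took 0.501% ± 0.0267 and the listed cytokines and chemokines (45 symbols) 0.212% ± 0.00626. Genes outside the classes made up 49.3%. Between 232 and 292 symbols were enough to reach 50% of a library's total, and 368 to 408 when short noncoding RNAs were left out.

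**Figure D2:**
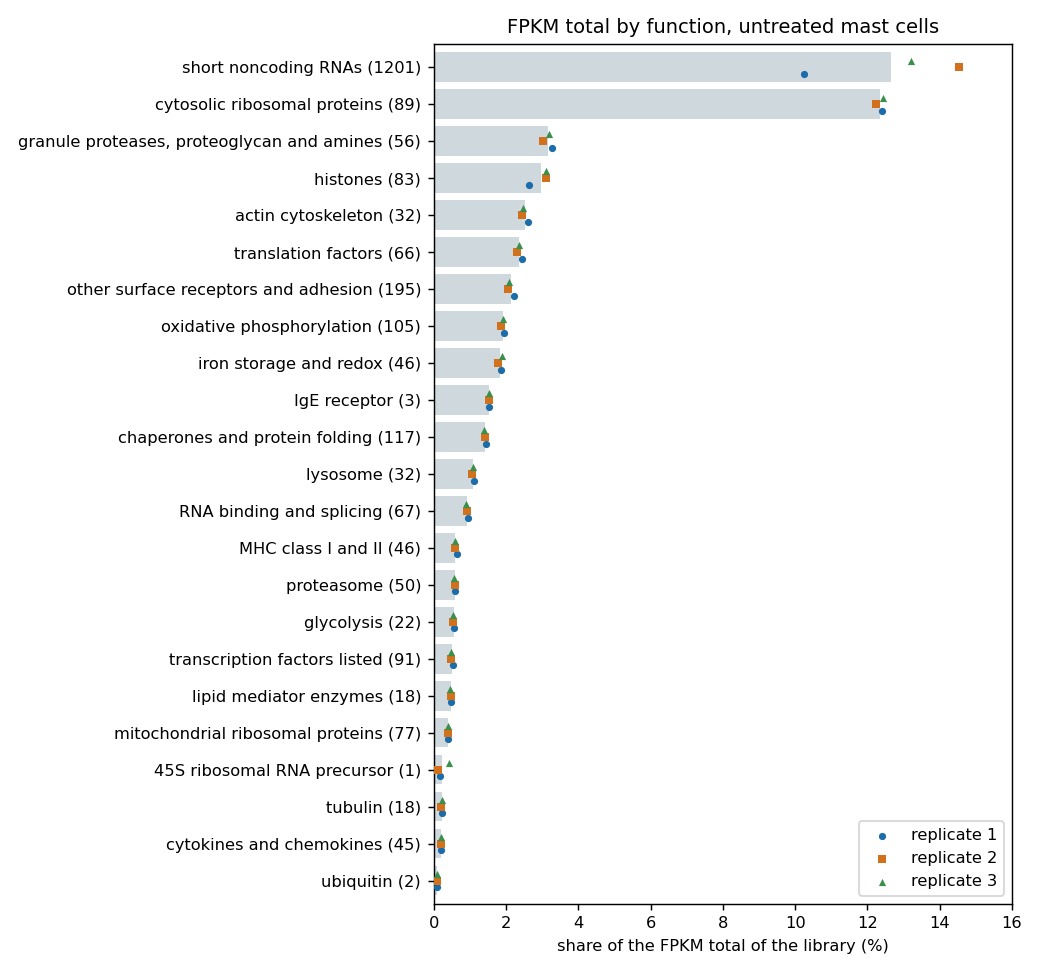
Share of each library's FPKM total (%) by functional class, with the number of symbols in brackets; bars are means and points the 3 untreated libraries. Ribosomal protein genes and short noncoding RNAs lead, and the 3 IgE receptor chains take 1.53%.

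The IgE receptor was the dominant Fc receptor. The signalling beta chain Ms4a2 was at 1174, 1188 and 1209 FPKM and the shared gamma chain Fcer1g at 707, 708 and 699.8 FPKM, so that Fcer1a exceeded both in every library. Of 15 Fc receptor symbols 6 were detected (40%, against 43.7% of the table), with a list median of 0.608 FPKM. The activating IgG receptor Fcgr3 was at 131, 128 and 132 FPKM and the inhibitory IgG receptor Fcgr2b at 86.5, 86.96 and 92.4 FPKM. Their ranges did not overlap, with Fcgr3 the higher. The other activating IgG receptors, Fcgr1 and Fcgr4, were at 0.608 and 0.0788 FPKM, the low-affinity IgE receptor Fcer2a at 0.348 and the neonatal receptor Fcgrt at 0.819. Fcrl1, Fcrl5, Fcamr and Faim3 were listed at 0. Within its gene cluster on chromosome 19, Ms4a2 stood alone: its neighbours Ms4a3 and Ms4a6d were at 3.17 and 1.98 FPKM, and the B cell gene Ms4a1 was listed at 0.

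Of 38 growth factor and cytokine receptor symbols 28 were detected (73.7%, against 43.7% of the table), with a median of 8.72 FPKM. After Il1rl1 the highest of the list were Csf2rb and Kit. The common beta chain Csf2rb, which signals for IL-3, GM-CSF and IL-5, was at 493, 444 and 468 FPKM, and Csf2rb2, the IL-3-specific beta chain, at 187, 143 and 160.0 FPKM, the latter below Il4ra. Both were highest in replicate 1, and 28.0% of the 31-base words of Csf2rb also occur in Csf2rb2, so their split is uncertain. Kit had a similar level of 447 ± 26.1 FPKM, whose range overlapped that of Csf2rb. The ligand-binding alpha chains were much lower: Il3ra at 17.8 ± 0.445, Csf2ra (GM-CSF) at 8.31 ± 0.455 and Il5ra (IL-5) at 2.69 ± 0.371 FPKM.

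Receptor chains for type 2 cytokines and for alarmins differed widely in level, and not every partner chain was detected. Il4ra, the IL-4 receptor chain, was at 272, 281 and 278 FPKM and its partner Il2rg, the common gamma chain, at 80.6, 81.2 and 86.8 FPKM, whereas Il13ra1 was at 0.0578. Crlf2, the TSLP receptor, was at 105, 115 and 112 FPKM, while Il7r, its partner chain, was at 1.67 ± 0.104. Il17rb, the IL-25 receptor chain, was at 0.498. Il1rap, the partner of Il1rl1, was at 9.78 ± 0.4 FPKM, and the IL-18 receptor chains Il18r1 and Il18rap were at 20.3 ± 0.604 and 16.6 ± 0.406. The IL-1 receptor Il1r1 itself was at 0.194 FPKM. The TGF-beta receptors Tgfbr1 and Tgfbr2 were at 178 ± 2.73 and 50.2 ± 2.22, the IL-10 receptor chain Il10ra at 94.4 ± 1.39, and the interferon receptor chain Ifnar2 at 45.3 ± 1.58 FPKM. Some receptors used by other lineages lay at the bottom: Flt3 at 0.00264, Csf3r at 0.09097 and Il6ra at 0.0518 FPKM, and Il2rb was listed at 0. Others were higher, with Epor at 2.81, Il5ra at 2.69 and Csf1r at 1.05 FPKM.

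Of 48 G protein-coupled receptor symbols 31 were detected (64.6%, against 43.7% of the table), with a median of 5.75 FPKM. Of the 48, 18 were at 10 FPKM or more, beside 25.5% of the table. The adhesion receptor Cd97 was the highest at 265, 275 and 277 FPKM. Mrgprb2, the Mas-related receptor for basic secretagogues on connective tissue mast cells, was at 146, 163 and 169 FPKM, with Mrgprb1 at 38.4 ± 1.67 and Mrgprx2 at 29.4 ± 1.05. Mrgprb2 was therefore above both in every library. The adenosine receptor Adora3 was at 112, 113 and 119 FPKM, while Adora2a and Adora2b were at 8.68 and 5.3 and Adora1 was listed at 0. The UDP-sugar receptor P2ry14 was at 109.8 ± 1.77 FPKM and the prostaglandin E2 receptor Ptger3 at 97.96 ± 4.48. Ptger1 and Ptger4 were lower, at 16.8 and 16.5 FPKM, and Ptger2 was at 0.01898.

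Among receptors for mast cell mediators, the histamine receptor Hrh4 was at 39.7, 39.95 and 41.6 FPKM, Hrh2 at 6.84 ± 0.647 and Hrh1 at 0.156. The receptor for platelet activating factor, Ptafr, was at 7.703 ± 0.863, the leukotriene B4 receptor Ltb4r1 at 3.59 ± 0.435, and the cysteinyl leukotriene receptors Cysltr2 and Cysltr1 at 2.03 and 0.0793 FPKM. The prostaglandin D2 receptor Ptgdr2 was at 0.0164, and Ptgdr was listed at 0. Complement receptors differed in level: C3ar1 was at 21.9 ± 1.06 and C5ar1 at 4.74 ± 0.227 FPKM. The sphingosine-1-phosphate receptors S1pr2, S1pr4 and S1pr1 were at 9.83, 6.21 and 4.01. The substance P receptor Tacr1 was listed at 0.

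The chemokine receptors were led by genes also used as monocyte markers. Ccr2 was at 84.6, 92.4 and 91.1 FPKM, Cx3cr1 at 50.8, 44.1 and 52.9, and Ccr1 at 40.3, 45.3 and 45.4 FPKM. Ccr3 was at 8.42 ± 0.494, Cxcr4 was at 0.635, and Ccr7 and Cxcr3 were listed at 0. Of the macrophage and monocyte marker list 7 of 16 were detected (43.75%, against 43.7% of the table), with Lyz2 (lysozyme) at 72.1 ± 3.98, Emr1 (F4/80) at 12.2 ± 0.475, Marco at 10.1 ± 0.831 and Cd68 at 8.62 ± 0.3096 FPKM. The list summed to 243, 243 and 257 FPKM in the 3 libraries. Other members of the list were lower: C1qa was listed at 0, C1qb was at 0.0106, C1qc at 0.0857 and Mrc1 at 0.185 FPKM, and Csf1r was at 1.05 ± 0.133. The part of any monocytes in the Ccr2 and Cx3cr1 levels was not tested.

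**Figure D3:**
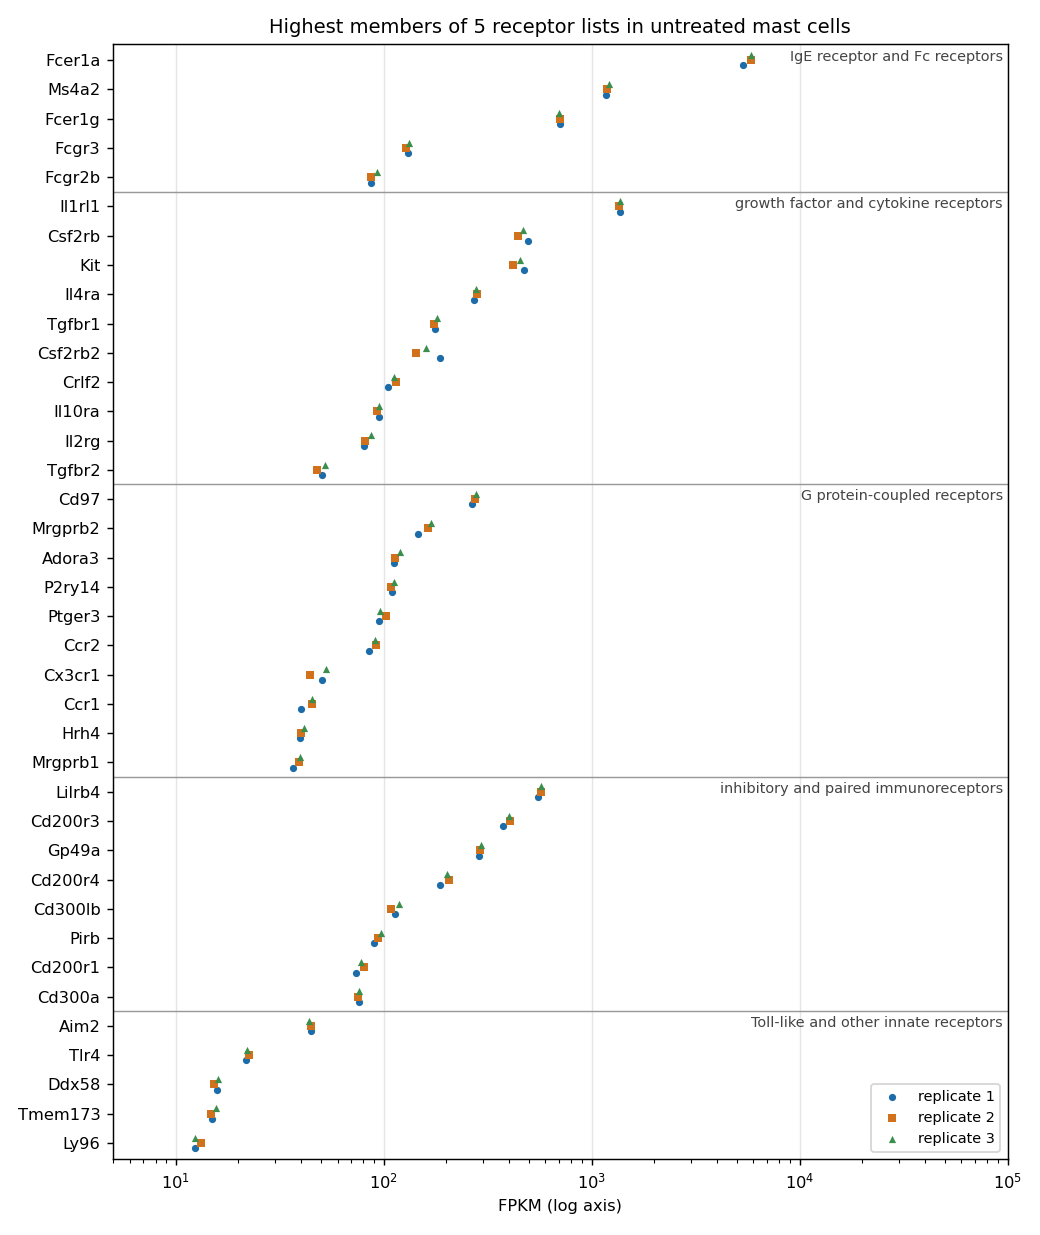
FPKM (log axis) of the highest members of 5 receptor lists in the 3 untreated libraries, 1 point per library. Fcer1a tops the Fc receptors, Il1rl1 the cytokine receptors, Cd97 the G protein-coupled receptors and Lilrb4 the inhibitory receptors, while no innate receptor reaches 100 FPKM.

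Inhibitory receptors restrain mast cells, and paired families hold inhibitory and activating members. Of 30 inhibitory and paired immunoreceptor symbols 20 were detected (66.7%, against 43.7% of the table), with a median of 17.5 FPKM. Lilrb4 (gp49B), an inhibitory receptor, was at 550.5, 572 and 573 FPKM and its relative Gp49a at 288, 290.2 and 295 FPKM. In GENCODE M21, which names them Lilrb4a and Lilr4b, 34.4% of the 31-base words of the former occur in the latter, so the split is uncertain. Among the CD200 receptors Cd200r3 was at 393 ± 15.7, Cd200r4 at 198 ± 9.94, the inhibitory Cd200r1 at 77.3 ± 3.604 and Cd200r2 at 1.12 ± 0.138 FPKM. Pirb was at 93.7 ± 3.64, and the inhibitory CD300 members Cd300a and Cd300lf were at 75.9 ± 0.492 and 43.5 ± 1.67. Milr1 (allergin-1), an inhibitory receptor of mast cells, was at 18.96 ± 0.999 and Lair1 at 17.8 ± 0.841. Cd33 was the only one of 6 Siglec symbols detected, at 17.1 ± 0.2096 FPKM, and Klrg1 was at 0.861.

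Innate sensors were lower. Of 25 symbols 14 were detected (56%, against 43.7% of the table), with a median of 1.48 FPKM. The list summed to 137 to 138 FPKM in each library. The DNA sensor Aim2 was the highest at 44.5, 44.6 and 43.9 FPKM. Tlr4, the receptor for bacterial lipopolysaccharide, was at 21.7, 22.6 and 21.96 FPKM and its partner Ly96 (MD-2) at 12.3, 13.2 and 12.4, whereas the co-receptor Cd14 was at 0.811 ± 0.162. Tlr6 and Tlr2, which pair for lipopeptides, were at 3.61 ± 0.297 and 1.68 ± 0.0968, and Tlr13 was at 1.48 ± 0.05. The endosomal receptors Tlr3, Tlr7 and Tlr9 were at 0.00705, 0.04298 and 0.00279 FPKM, and Tlr11 was listed at 0. The cytosolic sensors Ddx58 (RIG-I) and Tmem173 (STING) were at 15.7 ± 0.317 and 15.1 ± 0.509, and the inflammasome sensor Nlrp3 at 9.75 ± 0.669 FPKM.

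The adhesion list was led by Itga2b, the platelet integrin alpha chain CD41, at 429.8, 430.1 and 434 FPKM, although its partner Itgb3 was at only 16.1, 15.04 and 14.97 FPKM. Cd34, a sialomucin of progenitors and mouse mast cells, was at 334 ± 5.52, Pecam1 at 178 ± 2.75 and Itgb7, an integrin chain used in homing of mast cell progenitors to the gut, at 153 ± 7.94. Its partner chain Itga4 was at 4.43 ± 0.151 and the other partner Itgae at 0.551 FPKM. In all, 19 of 28 adhesion symbols were detected (67.9%, against 43.7% of the table), with a median of 5.09 FPKM. The laminin integrin chain Itga6 was at 12.2 ± 0.1197, while the collagen and laminin integrin chains Itga1, Itga2 and Itga3 were at 0.0252, 0.883 and 0.0326. All 14 tetraspanin and pan-leukocyte symbols were at 10 FPKM or more, against 25.5% of the table, with Spn (CD43) at 476 ± 13.7 and Cd63, a granule membrane tetraspanin, at 427 ± 4.48.

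Markers of platelets and megakaryocytes, which also carry Itga2b, were measured beside it. Of 16 symbols 7 were detected (43.75%, against 43.7% of the table), among them Gp5 at 65.02 ± 1.45, Gp1ba at 18.2 ± 2.44, Vwf at 10.96 ± 0.6996 and Gp9 at 5.23 ± 0.926 FPKM. The list summed to 637 to 647 FPKM per library. Pf4 and Ppbp, the chief chemokines of platelet granules, were listed at 0. Whether platelet-lineage cells contributed to the Itga2b level was not tested.

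The granule protease list summed to a mean of 8330 FPKM, most of it Tpsb2. Of 29 symbols 11 were detected (37.9%), a share near the 43.7% of the table. Cpa3 and Cma1, listed at 0, count as not detected here, although such a 0 can be a failed estimate. The list median was 0.0583 FPKM, and 4 of the 29 members were at 100 FPKM or more, beside 2.82% of the table. The tryptase locus on chromosome 17 held Tpsb2 and, next to it, Tpsg1, a membrane-anchored tryptase, at 317, 315 and 339 FPKM. Tpsab1 was at 2.76, 3.32 and 3.53 FPKM in the same locus. Only 0.715% of the 31-base words of Tpsb2 occur in Tpsab1, so few reads could be shared. Prss34 (mMCP-11), a protease of mast cells and basophils, was at 120.3 ± 11.7 FPKM.

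On chromosome 14 the chymase and granzyme genes lie in a row, and the level differed sharply along it. Gzmb, granzyme B, was at 1143, 1128 and 1204 FPKM. Its direct neighbour in the same family, Gzmc, was at 1.55, 1.22 and 1.66 FPKM, and Gzmf, Gzmn and Gzmg beyond it were listed at 0. The chymases Cma2, Mcpt2 and Mcpt4 were at 7.98 ± 0.3398, 6.39 ± 0.361 and 6.31 ± 0.985 FPKM, Mcpt8 at 12.4 ± 1.01 and Ctsg (cathepsin G) at 8.34 ± 0.194, with overlapping ranges for Mcpt2 and Mcpt4. The pseudogene Mcpt-ps1, which lies beside Cma1 and was named after its value was seen, was at 16.2 ± 2.47 FPKM. Mcpt1, a protease of mucosal mast cells, was at 0.0457 FPKM, Mcpt9 at 0.0583, and Cma1 (mMCP-5) was listed at 0. Cpa3, mast cell carboxypeptidase A, was also listed at 0 in all libraries, as was Prf1 (perforin). An exact 0 in a table of this kind can be a failed estimate rather than a level, and Vamp7, a SNARE that most cells use, was likewise listed at 0.

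**Figure D4:**
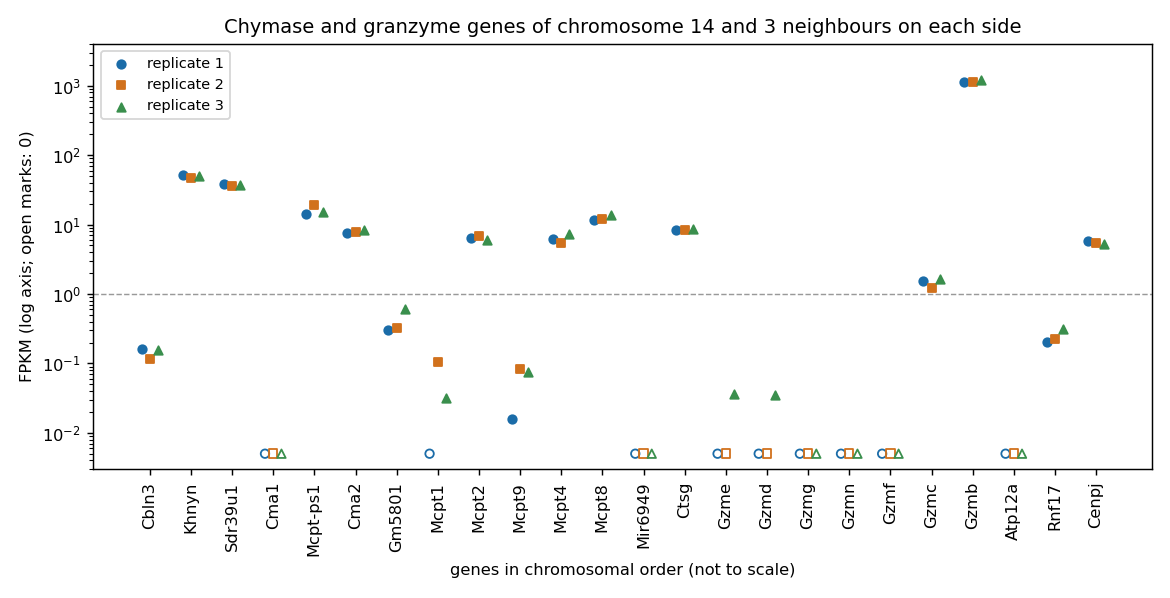
FPKM (log axis) of the chymase and granzyme genes of chromosome 14 in chromosomal order with their neighbours, 1 point per untreated library; open marks at the bottom are 0 and the dashed line is 1 FPKM. Gzmb stands near 1158 FPKM, Cma2, Mcpt2, Mcpt4 and Mcpt8 have means of 6.31 to 12.4, and Gzmf, Gzmg and Gzmn are at 0.

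Genes for storing amines and proteoglycan were mostly detected (23 of 27, 85.2% against 43.7% of the table, median 11.7 FPKM). Srgn, the protein core that carries heparin and chondroitin sulphate, was at 4991, 5299 and 5443 FPKM. Tph1, which makes serotonin, was at 874, 932 and 926 FPKM, while Hdc, which makes histamine, was at 25.9, 27.2 and 28.3 FPKM. Tph1 was thus above Hdc in every library. Slc18a2, the vesicular transporter that loads amines into granules, was at 456 ± 8.36 FPKM and the plasma membrane serotonin transporter Slc6a4 at 4.69 ± 0.5898. Ddc and Gch1, which serve serotonin synthesis, were at 11.7 ± 0.497 and 76.6 ± 5.47. Of the breakdown enzymes Maob was at 190.3 ± 0.777, Maoa at 1.04 ± 0.104 and Hnmt, which degrades histamine, at 0.135 FPKM.

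All 15 glycosaminoglycan synthesis genes of the list were detected. Ndst2, the sulphotransferase known for heparin synthesis in mast cells, was the highest at 149, 138 and 147 FPKM, and its relative Ndst1 was at 9.25, 8.77 and 8.62 FPKM. The chondroitin sulphotransferases Chst15 and Chst11 were at 57.1 ± 2.07 and 31.04 ± 0.482, and the heparan sulphotransferases Hs3st1 and Hs6st1 at 58.9 ± 1.86 and 27.3 ± 1.31. The chain-starting xylosyltransferases Xylt1 and Xylt2 were at 1.66 ± 0.274 and 4.09 ± 0.4395 FPKM.

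Lysosomal genes were detected in 28 of 32 cases (87.5%, against 43.7% of the table, median 56.4 FPKM). After Ctsd the highest were the cystatins Cst7 and Cst3, inhibitors of cathepsins, at 711 ± 12.4 and 608 ± 42.98 FPKM. Ctsc (cathepsin C), which activates granule serine proteases, was at 109 ± 5.62, Ctse at 107 ± 4.63 and Ctsb at 41.3 ± 1.42, whereas Ctsl was at 0.5698 and Ctsk at 0.776 FPKM. Hexa, a lysosomal hydrolase gene, was at 137 ± 4.25 FPKM, and Lamp1 and Lamp2 at 218 ± 10.5 and 108 ± 7.396.

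The release machinery was detected in 19 of 23 cases (82.6%, against 43.7% of the table, median 14.7 FPKM). Vamp8, the granule SNARE of mast cells, was at 228, 219 and 243 FPKM and its partner Snap23 at 139, 138 and 143 FPKM. The plasma membrane syntaxins Stx3 and Stx4a were at 48.3 ± 1.09 and 46.7 ± 0.148, the docking factor Stxbp2 (Munc18-2) at 67.1 ± 1.86 and the priming factor Unc13d (Munc13-4) at 57.2 ± 0.766. Among the Rab proteins of secretion Rab37 was at 167 ± 2.62, Rab27b at 95.03 ± 2.08, Rab27a at 23.9 ± 0.772 and Rab3d at 20.1 ± 0.405 FPKM. The neuronal Syt2 was at 0.0186 and Sytl4 at 0.0437.

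The 5-lipoxygenase route was the highest part of lipid mediator synthesis. Of 18 symbols 11 were detected (61.1%, against 43.7% of the table), with a median of 34.8 FPKM. Alox5, which starts leukotriene synthesis, was at 849.7, 866 and 849 FPKM and its activating protein Alox5ap at 534, 554 and 555 FPKM. The terminal enzymes Lta4h (leukotriene B4) and Ltc4s (leukotriene C4) were at 72.5 ± 4.35 and 33.9 ± 2.96. In the prostaglandin branch, Ptgs1 (cyclooxygenase 1) was at 38.9, 44.5 and 41.1 FPKM and Hpgds, the haematopoietic prostaglandin D2 synthase, at 52.2 ± 1.07, while Ptgs2 (cyclooxygenase 2) was at 0.0723 and Ptges at 0.0372. Tbxas1, thromboxane synthase, was at 187 ± 4.305 FPKM. Pla2g7, which degrades platelet activating factor, was at 418 ± 15.3 and the arachidonate-releasing Pla2g4a at 35.7 ± 1.25 FPKM. Pla2g5 was listed at 0.

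Some cytokine genes were expressed in culture with IL-3 and SCF, without IgE or antigen. Of 45 symbols 26 were detected (57.8%, against 43.7% of the table), with a median of 2.81 FPKM. The chemokines Ccl6 and Ccl2 led, at 339, 336 and 372 and 216, 221 and 251 FPKM, and Ccl9 was at 99.8, 100.3 and 102. Il6 was at 33.9, 41.3 and 36.2 FPKM, Il1b at 22.7 ± 0.382, Osm (oncostatin M) at 22.2 ± 2.33 and Il4 at 12.9 ± 0.779. Il13 and Tnf, products of activated mast cells, were at 2.199, 3.52 and 2.699 and 1.67, 1.97 and 1.97 FPKM. Csf2 (GM-CSF) and Il5 were at 0.263 and 0.0215 FPKM, and Il3, Il9, Il2, Il10 and Cxcl10 were listed at 0. Ccl3 and Ccl4 were at 31.7 ± 1.704 and 8.48 ± 1.03, the T cell costimulator Tnfsf14 (LIGHT) at 24.8 ± 0.966, Tgfb1 at 48.4 ± 2.43 and Vegfa at 25.7 ± 1.69 FPKM.

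Transcription factors of the mast cell programme were detected in 40 of 43 cases (93.0%, against 43.7% of the table), with a median of 40.5 FPKM. Id2, an inhibitor of E proteins, was the highest at 339, 337 and 359 FPKM. Gata2 was at 218, 201 and 210.3 FPKM and Gata1 at 76.4, 75.5 and 77.4, without overlap, whereas Gata3 was at 1.71 ± 0.192 and Gata4, Gata5 and Gata6 were listed at 0. The GATA partners Tal1, Lyl1, Ldb1 and Lmo2 were at 116 ± 1.51, 97.3 ± 1.05, 71.7 ± 5.28 and 20.7 ± 0.859, and Zfpm1 (FOG-1) at 4.497 ± 0.453. Mitf, which drives Kit and granule genes, was at 71.3, 72.6 and 75.1 FPKM, with its relatives Tfe3 and Tfeb at 10.8 ± 0.601 and 0.6296. The ETS factors Fli1 and Spi1 (PU.1) were at 158 ± 6.08 and 60.5 ± 1.55 FPKM.

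The myeloid factors Cebpa and Cebpb were low, at 6.21, 6.59 and 6.55 and 4.45, 5.52 and 4.52 FPKM, and Cebpe was at 0.01798. Runx1 was at 40.5 ± 3.95 and its relatives Runx3 and Runx2 at 6.902 ± 1.14 and 0.696. Stat5a and Stat5b, which act downstream of IL-3 and KIT, were at 38.2 ± 1.21 and 49.4 ± 1.21, and all 7 STAT symbols of the table were detected. Meis1 and Hhex were at 44.5 ± 1.82 and 30.7 ± 0.717, while Hoxa9 was listed at 0 and Hoxb4 (5.05 ± 0.0724) was the only one of 39 HOX symbols detected. Myb, a progenitor factor, was at 77.6 ± 0.539, and Nfe2 at 88.3 ± 2.52 FPKM.

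Factors of other lineages were mostly near 0. Of 30 symbols 1 was detected (3.33%, against 43.7% of the table). It was Eomes, a T and NK cell factor, at 5.18, 5.58 and 5.1 FPKM. The list median was 0.00458 FPKM and 14 were listed at 0, among them Pax5, Ebf1, Tbx21 and Bcl11b. Irf8 and Irf4 were at 0.107 and 0.0196, and the erythroid factor Klf1 at 0.625 FPKM. This list and that of the mast cell factors were chosen with earlier results of these data known. Their counts are therefore no independent support for the cell type.

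Of 19 immediate early factors 9 were detected (47.4%, against 43.7% of the table), with a median of 0.703 FPKM, and levels differed by member. Klf6 was at 81.9, 81. and 85.3 FPKM, Batf at 69.2, 73.9 and 74.5 and Junb at 46.3, 51.8 and 51.5. In contrast Fos, Fosb and Atf3 were at 0.191, 0.129 and 0.202, the EGR genes Egr1, Egr2 and Egr3 at 0.266, 0.281 and 0.703, and the orphan receptors Nr4a1, Nr4a2 and Nr4a3 at 0.385, 1.83 and 0.03396 FPKM. Of the 3 NR4A members Nr4a2 was detected, and of the 3 EGR members none was. Jun was at 15.6 ± 0.102, Jund at 28.6 ± 1.38 and Myc at 9.97 ± 0.323.

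Of 44 symbols of IgE receptor signalling 39 were detected (88.6%, against 43.7% of the table), with a median of 19.7 FPKM. The adaptors Lat2 (NTAL) and Lat were at 481, 476 and 502 and 155, 148 and 154 FPKM, with Lat2 the higher in every library, and Lcp2 (SLP-76) was at 138 ± 4.23. Of the kinases Btk was at 103, 103 and 102, Lyn, which phosphorylates the receptor, at 61.5, 63.02 and 65.02, and Syk at 44.3, 42.3 and 43.7 FPKM. Fyn was at 10.2 ± 0.419, and the T cell kinases Lck and Zap70 were at 0.0249 and 0.0143. The inhibitory phosphatases Inpp5d (SHIP-1) and Ptpn6 (SHP-1) were at 223 ± 4.51 and 107 ± 0.299, and the PI3 kinase subunits Pik3cd and Pik3cg at 126 ± 2.93 and 33.7 ± 0.818. Plcg1 and Plcg2 were at 57.5 ± 0.171 and 33.9 ± 0.408, and the calcium entry genes Stim1 and Orai1 at 30.9 ± 1.24 and 13.5 ± 0.193 FPKM.

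All 27 proliferation genes were detected (100%, against 43.7% of the table, median 27.7 FPKM). Pcna was at 156, 166 and 161 FPKM, Top2a at 84.7, 88.96 and 87.1 and Mki67 at 79.4, 72.3 and 75.9. Of the D cyclins Ccnd2 and Ccnd3 were at 60.2 ± 1.805 and 59.3 ± 0.5503 and Ccnd1 at 1.43 ± 0.0977, and of the inhibitors Cdkn1b was at 51.7 ± 2.33 and Cdkn2a at 27.7 ± 2.42 FPKM. The survival list was detected in 17 of 20 cases (85%, against 43.7% of the table). The kinase gene Pim1, a STAT5 target, was at 283, 299 and 286 FPKM, Mcl1 at 83.5 ± 1.45 and Bcl2 at 33.1 ± 0.872. The death factor Bax was at 82.5 ± 1.399, whereas Bcl2a1a, Bcl2a1b and Bcl2a1d were at 0.194, 0.403 and 0.1196.

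Markers of the remaining cell types were read beside the 43.7% of the table that was detected. Whether their levels came from other cells or from the mast cells was not tested. Basophil markers, most of which mast cells share, were detected in 6 of 8 cases, with Cd200r3 above and Mcpt8 at 12.4 ± 1.01 FPKM. No T or NK cell marker of 13 was detected, the highest being Ncr1 at 0.5096 FPKM, and the list summed to 0.573 to 0.914 FPKM. Of 14 neutrophil markers 1 was detected (Mmp8, 1.51 ± 0.253), with S100a8 at 0.9403, Mpo at 0.1697 and Elane at 0.0267. Of 9 eosinophil markers Ccr3 and Il5ra were detected, with Epx at 0.0458 FPKM. Of 11 B cell markers Blnk (3.702 ± 0.0828) and Cd79b (2.23 ± 0.0642) were detected, and Ms4a1 was listed at 0. Of 12 erythroid markers Hbb-bt (14.96 ± 1.39), Tfrc (5.395 ± 0.862) and Epor (2.81 ± 0.2098) were detected, with Alas2 at 0.114.

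Of 12 dendritic cell markers H2-Ab1 (7.55 ± 0.712) and Cd74 (1.28 ± 0.124) were detected, while H2-Aa was at 0.169 and Ciita, the regulator of MHC class II, at 0.2603 FPKM. Of 12 stromal and endothelial markers only Tek (17.5 ± 0.435) was detected, and Col1a1, Col3a1, Kdr and Cdh5 were listed at 0. Stem and progenitor markers were detected in 5 of 10 cases (50%, against 43.7% of the table). Ly6a (Sca-1) was at 307, 289 and 332 FPKM and Mecom at 8.76 ± 0.411. Procr, Slamf1 and Hlf were at 0.765, 0.173 and 0.373. The Y-linked genes Eif2s3y and Ddx3y were at 53.98 ± 0.8703 and 27.1 ± 0.4896 FPKM and Xist was at 0.000551.

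**Figure D5:**
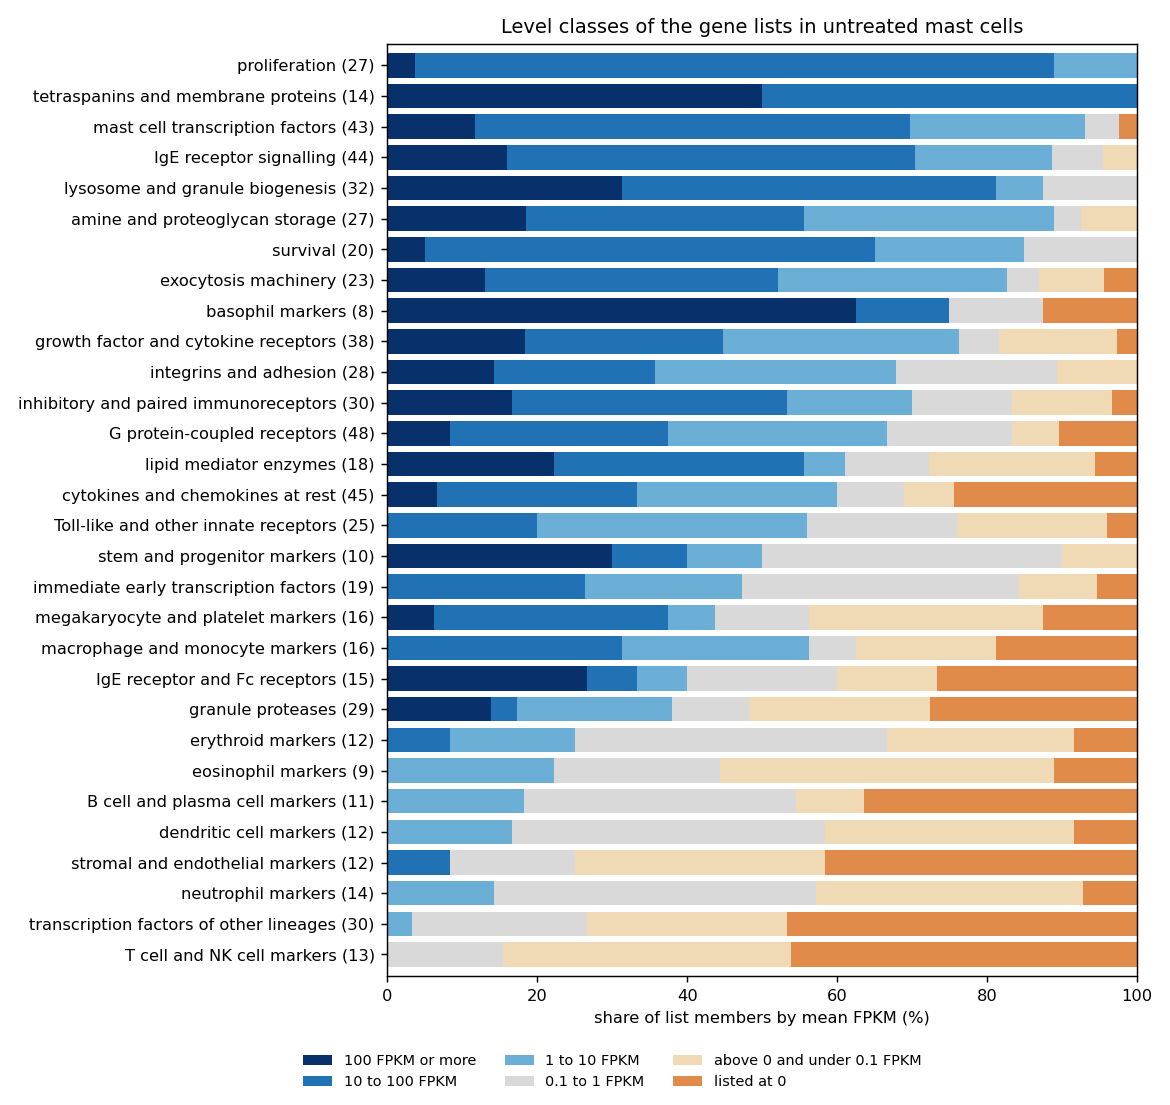
Share of the members of each list (%) in each class of mean FPKM, with the number of members in brackets, ordered by the share detected. Proliferation and tetraspanin lists are detected in full, and T cell and NK cell markers not at all.

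Large families with roles in other tissues were at the floor. Of 1117 olfactory receptor symbols 5 were detected, the highest Olfr920 at 6.05 ± 0.453 FPKM, and of 324 vomeronasal receptors 2. No keratin (of 104) or beta-defensin (of 43) was detected. Among regulators, 8 of 8 E2F and 5 of 5 NF-kB symbols were detected but 0 of 9 PAX and 2 of 19 SOX. Of 103 cytochrome P450 symbols 10 were detected, and after Cyp11a1 the next was Cyp4a12a at 36.6 ± 2.47 FPKM. Rab proteins were detected in 46 of 58 cases, with Rab38 at 257 ± 4.41 and Rab44 at 197 ± 3.24 FPKM, above Rab37. These families and leaders lie outside the rule for named genes and were chosen after their values were seen.

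By type of gene in GENCODE M21, matched by symbol, 9676 of 19598 protein-coding symbols were detected (49.4%) and 221 of 1551 long noncoding RNAs (14.2%). Neat1, the scaffold RNA of paraspeckles, led the long noncoding RNAs at 287, 265 and 261 FPKM. AI662270 (139 ± 2.78) and E330020D12Rik (123.4 ± 5.80) followed. The interferon-induced Ifitm genes on chromosome 7 were another local group: Ifitm2 was at 1221 ± 61.2 and Ifitm3 at 108 ± 3.61 FPKM beside Ifitm1, while Ifitm6 was at 0.0484. These genes, too, were chosen after their values were seen.

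Short noncoding RNAs took 10.3%, 14.5% and 13.2% of the total in the 3 libraries (12.7% ± 2.18). Rpph1, the RNA of ribonuclease P, was at 34921, 39506 and 49367 FPKM and Rmrp, the RNA of ribonuclease MRP, at 6293, 7026 and 7934. Mir7058 was at 19892 FPKM in replicate 2 and at 0 in the others. On a transcript of 100 bases, 3 reads alone correspond to 0.890 to 1.004 FPKM. Symbols at 0 in 1 or 2 libraries numbered 1810, and all 19 of these that reached 10 FPKM or more in the others were short noncoding RNAs. Their median coefficient of variation was 87.8%, so their levels are given here without ranking.

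Ribosomal protein genes with near-identical copies were uncertain in level. Of 89 symbols 85 were detected. Rps27rt was at 1805, 1837 and 1841 FPKM while Rps27 was at 5.55, 7.90 and 8.98, and 91.6% of the 31-base words of Rps27rt occur in Rps27. Likewise Rpl34-ps1 was at 823 ± 34.0 FPKM with Rpl34 at 20.01 ± 4.12 (80.9% shared), Gm15772 at 1063 ± 58.1 with Rpl26 at 20.7 (84.8%), and Gm12191 at 1165 ± 39.5 with Rpl30 at 16.1 (90.3%). Within each pair the copy labelled as a pseudogene or retrotransposed gene was the higher in all libraries. The handling of reads that match both copies is unknown here. These pairs were chosen after their values were seen.

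Replicates lay close together. Across the 10475 detected symbols the log2 levels of pairs of libraries had a Pearson r of 0.996 to 0.997, a description across genes, and 0.153% to 0.162% of symbols differed by more than 2-fold. The median coefficient of variation was 3.69% at 100 FPKM or more, 3.50% at 10 to 100, 6.08% at 1 to 10 and 20.1% at 0.1 to 1. For a 2 kb transcript, counting error alone gives 1.22% to 1.29% at 100 FPKM, 3.85% to 4.09% at 10 FPKM and 12.2% to 12.9% at 1 FPKM. These are the lower edges of the classes, and counting error falls with level within a class. At 100 FPKM or more the median of 3.69% was above this counting error.

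The few genes that did vary fell into groups. Lars2, a mitochondrial leucyl-tRNA synthetase gene, was at 164, 56.1 and 1263 FPKM, and Rn45s, the precursor of ribosomal RNA, at 821, 650.1 and 2147. Both were highest in replicate 3 and lowest in replicate 2. Eif3j1 was at 26.3, 8.66 and 14.7 FPKM and its near copy Eif3j2 at 4.34, 22.5 and 14.7, so that their sum was 30.6, 31.2 and 29.5. Of the words of Eif3j2, 94.0% occur in Eif3j1. Histone genes made up 14 of the 25 most variable symbols at 10 FPKM or more. Hist1h4j was at 16.5, 105 and 115 FPKM, Hist1h4i at 15.98, 24.4 and 41.6, Hist1h2bj at 34.4, 67.9 and 57.8, Hist1h4m at 25.4, 40.9 and 45.9, and Hist1h2bk at 16.2, 23.4 and 25.2. All 5 were lowest in replicate 1, as was the share of the histone class (2.64%, against 3.10% and 3.12%). Of the 14, only Hist1h3c was lowest in another library, at 199, 268 and 177 FPKM in replicates 1, 2 and 3. Rpl14-ps1 was at 16.3, 18.1 and 24.7 FPKM.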

How the data were processed

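RNA sequencing values were taken for the 3 untreated libraries from the deposited table of FPKM per gene symbol, made by the authors. Per the submitters' processing notes, the aligners were TopHat2 (2.0.12) and Bowtie (0.12.7), with mm9 as the genome. The FPKM program, its annotation and any strand setting were not given in the sources used here, and antisense genes that overlap may not be separated. From the deposited FPKM, means, SD, classes of level and shares of each library's total were computed with Python 3.11.15, pandas 2.3.3 and numpy 2.4.6. No group was compared with another and no test was run.

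Of 696 entries in 31 gene lists, 693 were in the table. The libraries, lists and classes were chosen with earlier results of these data known. Genes named are the 25 highest symbols without short noncoding RNAs, list members (highest first, and up to 6 under 0.1 FPKM in list order), the 10 most variable symbols at 10 FPKM or more, and those nearest 1 FPKM; exceptions are stated. Some members at lower levels were named for their known roles, out of that order and after their values were seen.

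Depth was estimated from 2966 genes with a single transcript over 1000 bases in GENCODE M21. Of the low values, 49.7% to 58.2% came within 0.1 of a whole number of reads. The depth was chosen to bring these same values near whole numbers, so this share is no check of it. The 20% given by chance holds only for a depth fixed beforehand. The estimate was tested on simulated data made with the same transcript lengths, whereas the annotation behind the deposited FPKM is unknown. Floors cover counting error only. Shared 31-base words were counted between GENCODE M21 transcripts. Promoters are from RefSeq.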

Additional observations from a re-analysis of the deposited data

How the results depend on the processing

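No paired analysis was possible because the untreated libraries were compared with no other group. The count of 10475 detected symbols ran from 7960 (5 FPKM) to 11146 (FPKM rescaled to TPM), with 10513 to 10547 when 1 library was left out. Of the 25 highest symbols, 24 to 25 were the same under each other ranking or scaling and without each library. Over all lists, 405 symbols were detected, 331 to 432 with other thresholds and 405 to 409 without 1 library. Shares depend on the total: without short noncoding RNAs the IgE receptor took 1.75%, ribosomal proteins 14.2% and the granule class 3.62%. Without the 10 highest symbols, short noncoding RNAs counted among them, these were 0.470%, 15.1% and 0.921%. The 10 include Rpph1, Rmrp and Mir7058 as well as Tpsb2, Fcer1a and Srgn. The IgE receptor and granule classes thus lost their own highest members. Adding Gm12191, Gm15772 and Rpl34-ps1, chosen after seeing the data, gave ribosomal proteins 12.98%. Leaving out each library gave 1.52% to 1.53%, 12.3% to 12.4% and 3.11% to 3.23%. By mean level over the libraries, 252 symbols made up 50% of the total, or 388 without short noncoding RNAs, and 234 to 261 without 1 library. For symbols with a mean of 1 FPKM or more, short noncoding RNAs left out, the median coefficient of variation was 4.36%. It was 5.83% as TPM, 4.31% after quantile normalization, and 3.27% to 4.09% without 1 library. Counts moved by over 1.5 times in 6 lists at 5 FPKM: innate receptors (14 to 6), neutrophil (1 to 0), B cell (2 to 0), eosinophil (2 to 1), erythroid (3 to 1) and dendritic markers (2 to 1). At 0.5 FPKM neutrophil markers numbered 4 and factors of other lineages 2. Without replicate 2 the neutrophil markers numbered 2, the only list moved by leaving out a library. Counting error limits levels under 0.1 FPKM.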
